A study of Mus musculus with 8 samples.

Results

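The comparison described here set 2 mouse brain libraries that lack the *Scn1a* interval 1b on both chromosomes (1b-/-) against 2 libraries from wild-type (WT) mice, gene by gene. Its members were all genes that reached 1 CPM (counts per 1e6 counts of the library) in at least 1 of these 4 libraries, which left 14894 of the 24015 genes in the deposited count table (15588 reached 1 CPM in at least 1 of all 8 libraries). Messenger RNA was sequenced at postnatal day 7 (P7) from inbred C57BL/6N mice. Both WT animals were male and carried no deleted allele. Both 1b-/- animals were female and carried 2 deleted alleles, so genotype and sex cannot be told apart between these groups. A further 4 libraries from mice with 1 deleted allele (1b+/-, 2 males and 2 females) entered the fit to estimate the spread between animals. The deletion was made with Cas9 and a pair of guide RNAs in C57BL/6N oocytes, and carriers of 1 line were crossed to WT mice. It is constitutive and was not restricted to any cell type. The tissue is hippocampus according to the labels of the samples and forebrain according to the study's methods.

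*Scn1a* encodes NaV1.1, the pore-forming alpha subunit of a voltage-gated sodium channel that opens on depolarization and carries the upstroke of the action potential. Auxiliary beta subunits tune its gating, and ankyrin and spectrin scaffolds hold such channels at the axon initial segment, where spikes begin. NaV1.1 is known for its role in fast-spiking GABAergic interneurons, and loss of 1 copy of the human gene causes Dravet syndrome, an epileptic encephalopathy. Transcripts of the gene start mainly at 2 non-coding first exons, 1a and 1b.

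The sites cut by Cas9 are shown because they bound what the 1b-/- libraries lack. *Scn1a* is transcribed from the minus strand (NCBIM37/mm9, chr2:66108838-66278897) and has 7 annotated transcripts. The cut sites are chr2:66245618-66245640 on the minus strand and chr2:66248668-66248690 on the plus strand. Each is printed 5' to 3' on its own strand, with the 3 bases of the protospacer-adjacent motif in capitals.
site downstream of exon 1b: ggagatctgggtagtcctcgGGG
site upstream of exon 1b: gcttttcatactatagtgagTGG
Between these sites lie exon 1 of the transcript Scn1a-001, which is the annotated form of exon 1b (chr2:66247919-66248121), and exons 1 and 2 of *Gm13630*, a long non-coding RNA on the opposite strand that was not analysed here. The first exons of the other 6 annotated transcripts lie outside them. Counts in the table are summed over all transcripts of a gene, so that starts at 1a and 1b were not separated.

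Depth and tissue makeup differed between the libraries. The totals were 12575229 and 6742864 counts in WT replicates 1 and 2 and 8405494 and 3940859 in those of 1b-/-. No count at all allowed a level of up to 0.248 CPM in the deepest of the 4 and 0.748 CPM in the shallowest, which covers counting error only. Every pair of the 4 differed by more than sampling noise (chi-square per degree of freedom 3.92 to 11.4), so none was a copy of another. The most alike pair crossed genotype: WT replicate 2 and 1b-/- replicate 2 (3.92), which were also the 2 shallowest libraries. The 2 WT libraries were at 9.60 and the 2 1b-/- libraries at 10.3, so by this measure the libraries did not group by genotype. WT replicate 1 stood apart in genes of stratified epithelia and muscle. *Krt1* and *Krt10*, keratins of the outer skin layers that were chosen after their values were seen, were at 110.5 and 61.4 CPM there, and at most 11 and 10.1 CPM in the other 7 libraries. Regional markers varied between libraries of 1 or both groups. *Tcf7l2*, a transcription factor that marks thalamus, was at 117 and 13.3 CPM in WT and 20.0 and 66.1 CPM in 1b-/-. *Cdhr1*, a marker of olfactory bulb output neurons, was at 3.71 and 2.9 CPM in WT and 4.04 and 21.4 CPM in 1b-/-. Hemoglobin genes (6 of 6 listed) were at 0 in each of the 4 libraries and *Gapdh* did not exceed 1.22 CPM. The values of such genes with near-identical copies are uncertain, and the reason for these low counts was not tested.

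The label hippocampus was set against regional markers on a per-length scale (CPM per kilobase of exon, RPKM). The hippocampal markers *Prox1* (dentate granule cells) and *Wfs1* (CA1 pyramidal cells) ranged from 4.1 to 7.42 RPKM and from 1.74 to 3.01 RPKM over the 4 libraries, and *Mas1* stayed under 1 CPM. *Tbr1*, of deep cortical layers, ranged from 44.4 to 56.0 RPKM, above these 2 hippocampal markers in each library. Members of the neocortical list varied, with *Fezf2* at 31.6 to 38.1 RPKM and *Emx1* at 2.97 to 5.31 RPKM over the 4 libraries. *Calb1* of the hippocampal list was at 6.52 to 9.57 RPKM. These are single members of longer lists, and which tissue was sampled was not tested. Of 20 genes of midbrain, hindbrain and spinal cord, 4 were tested, and the sum over the list did not exceed 11.5 CPM in any of the 4 libraries.

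*Scn1a* itself was almost lost. It was at 45.1 and 40.3 CPM in WT and 3.18 and 1.99 CPM in 1b-/- (546 and 264 counts against 26 and 8). The groups were far apart, and the 4 1b+/- libraries lay between them at 15.7 to 26.6 CPM. WT libraries averaged 42.7 ± 3.35 CPM and 1b-/- libraries 2.59 ± 0.84 CPM (SD, n = 2 each). In the edgeR quasi-likelihood fit the log2 difference, 1b-/- minus WT, was -3.97 (SE 0.32, 95% interval -4.66 to -3.28), with a Benjamini-Hochberg adjusted p of 0.000674 over all genes tested. As a share of the WT level, the fit placed the 1b-/- level at 6.40%, with an interval of 3.97% to 10.3%. Reads of *Scn1a* were therefore still present in both 1b-/- libraries, at counts above the 3 that a count of 0 allows. An exact two-sided permutation test over the 4 libraries gave p = 0.333, the smallest that its 6 arrangements allow. *Scn1a* passed the threshold in 18 of 18 alternative fits, with log2 differences of -4.41 to -3.74. The call was closest to the threshold with sex as a covariate (log2 difference -3.76, SE 0.42, edgeR adjusted p 0.0496). Between female and male 1b+/- libraries, *Scn1a* differed by -0.21 on the log2 scale.

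**Figure D1:**
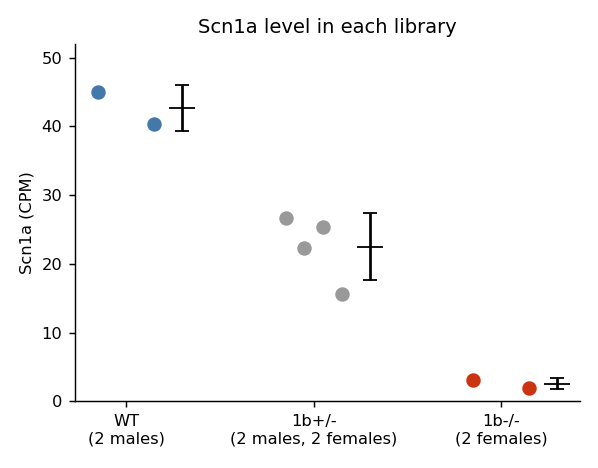
Scn1a level (CPM, vertical axis) in each of the 8 libraries, by genotype. Points are libraries and the bars beside them give mean and SD; the 2 1b-/- libraries are at 3.18 and 1.99 CPM and the 2 WT libraries at 45.1 and 40.3 CPM.

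No other sodium channel gene passed the test. Of the 9 other alpha subunit genes, *Scn7a* was below the expression limit in the 4 libraries, and 0 of the remaining 8 and of the 4 beta subunit genes had an unadjusted p under 0.05. With sex as a covariate all 8 alpha genes were higher (median 0.57), 1 of them at an unadjusted p under 0.05, and without 1b-/- replicate 1 4 were higher and 4 lower. With the 4 libraries alone 1 alpha gene had an unadjusted p under 0.05. *Scn2a1* (the table's name for *Scn2a*), which encodes NaV1.2 of excitatory axons, was at 360.5 and 327 CPM in WT and 381 and 333 CPM in 1b-/-, and its log2 difference of 0.05 had a 95% interval of -0.30 to 0.41. *Scn3a*, which encodes NaV1.3 of the developing brain, was at 200.1 and 185 CPM in WT and 207 and 196 CPM in 1b-/- (0.06, -0.31 to 0.44). *Scn8a*, which encodes NaV1.6 of the mature axon initial segment, was at 70.0 and 70.7 CPM in WT and 85.3 and 72.3 CPM in 1b-/- (0.17, -0.19 to 0.53). For these 3 genes the intervals exclude a rise or fall by a log2 of 1. *Scn9a*, the neighbour of *Scn1a* on the chromosome that encodes NaV1.7 of sensory neurons, was at 26.3 and 24.1 CPM in WT and 46.9 and 29.4 CPM in 1b-/-, above WT in both 1b-/- libraries. Its log2 difference was 0.61 with an interval of -0.14 to 1.36 that includes 0, and the 1b+/- libraries ranged from 20.4 to 50.2 CPM. With sex as a covariate its log2 difference was 1.25 (SE 0.43, edgeR adjusted p 1.0). Among beta subunits, *Scn3b* was the most abundant, at 263 and 289.6 CPM in WT and 225 and 312 CPM in 1b-/- (-0.04, -0.49 to 0.40), and *Scn2b* and *Scn4b* had log2 differences of 0.37 and 1.45, the last from levels of at most 1.35 CPM.

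**Figure D2:**
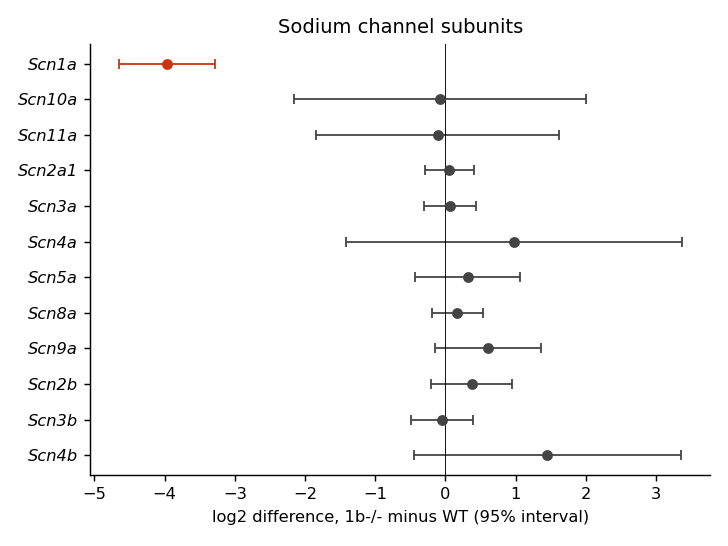
Log2 difference, 1b-/- minus WT, of Scn1a and of 8 other alpha (middle) and 3 beta (bottom) subunit genes of sodium channels, with 95% intervals from the edgeR fit. Scn1a is at -3.97, and the intervals of the 11 others include 0.

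The scaffold and the neighbourhood of the gene were read in the same way. Of 17 genes of the axon initial segment and partners of the channel, 0 had an unadjusted p under 0.05, and 16 had a 95% interval within 1 log2 unit of 0. *Ank3*, which encodes the ankyrin-G that anchors sodium channels, was at 299 and 309.6 CPM in WT and 305 and 301 CPM in 1b-/- (-0.01, -0.34 to 0.33). *Nfasc*, a cell adhesion molecule of the same compartment, had a log2 difference of -0.06 (-0.39 to 0.27). Of 12 genes tested that flank *Scn1a* on chromosome 2, 8 were higher and 4 lower in 1b-/-, none at an unadjusted p under 0.05, and 5 were higher without WT replicate 2 or without 1b-/- replicate 1. *Ttc21b*, which encodes a ciliary transport protein, was at 57.8 and 50.4 CPM in WT and 56.5 and 52.8 CPM in 1b-/- (0.02, -0.35 to 0.38). *Csrnp3*, a transcription factor gene, was at 677 and 619 CPM in WT and 757 and 558 CPM in 1b-/- (0.02, -0.39 to 0.43). Both intervals exclude a difference of a log2 of 1.

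Across the transcriptome few genes were called between 1b-/- and WT. *Scn1a* was the 1 gene past the adjusted threshold of 0.05 among 14894 (0.00671% called), in the quasi-likelihood fit of all 8 libraries. The median log2 difference was -0.01, and the difference was above 0 for 48.9% of genes. At an unadjusted p under 0.05, 146 genes (0.98%) were higher and 115 (0.772%) lower. Even together these shares are below the 0.05 that a calibrated test gives without any difference. The fit was therefore cautious, and few calls with 2 libraries a group do not show that the groups were alike. How firmly a lack of change can be stated rests on abundance. The 95% interval lay within 1 log2 unit of 0 for 98.6% of 4590 genes at 50 CPM or more and for 91.5% of 4941 genes between 10 and 50 CPM. It did so for 37.8% of 3262 genes between 2 and 10 CPM and for 0.0952% of 2101 genes under 2 CPM. In the last class a change of that size could hardly ever be excluded. The number of calls depended on the fit. With the 4 libraries alone it was 15 (0.101%), of which 5 were *Xist* and Y-linked genes. Without WT replicate 2 it was 19, all lower in 1b-/-, and these included *Krt1*, *Krt4*, *Krt10* and *Rptn* of stratified epithelia.

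**Figure D3:**
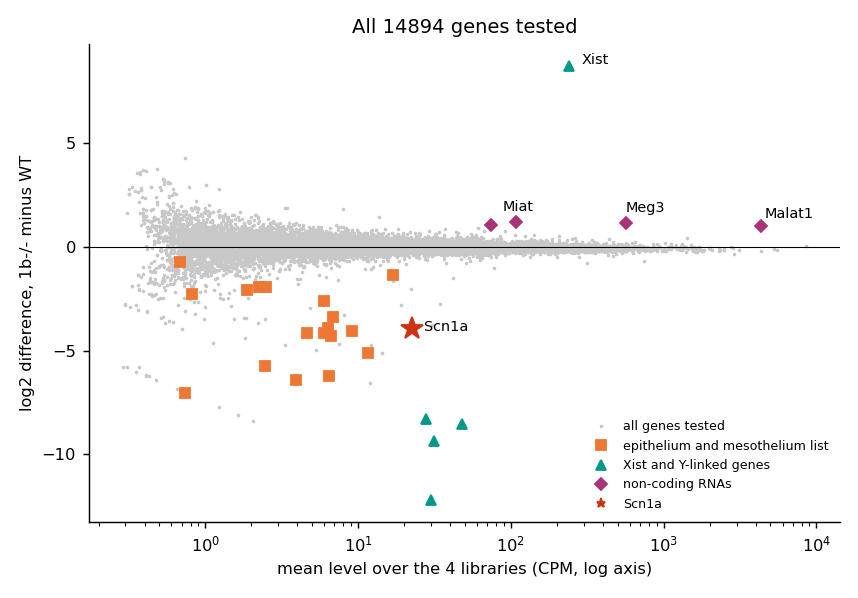
Log2 difference, 1b-/- minus WT (vertical), against mean level over the 4 libraries (CPM, log axis) for the 14894 genes tested. Scn1a is marked by a star; epithelial genes, Y-linked genes and Xist, and the non-coding RNAs Miat, A930011O12Rik, Meg3 and Malat1 are coloured, and fitted values of genes with 3 counts or fewer in a group depend on the prior count of the fit.

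Above WT in both 1b-/- libraries were 1736 genes (11.7% of those tested), and none of them passed the adjusted threshold in the fit of all 8 libraries. The 12 with the smallest unadjusted p among those with at least 2 CPM are given here. *Miat*, a nuclear non-coding RNA of neurons, was at 59.2 and 73.8 CPM in WT and 159.7 and 140.3 CPM in 1b-/- (log2 difference 1.18, SE 0.24, unadjusted p 0.000455, edgeR adjusted p 0.564). The groups did not overlap, but the 4 1b+/- libraries, at 88.1 to 149 CPM, lay between them or within the 1b-/- range. *Miat* passed in 5 of 18 alternative fits, among them that of the 4 libraries alone (edgeR adjusted p 0.0298). Its difference between female and male 1b+/- libraries was -0.60. With sex as a covariate the difference between 1b-/- and WT was 1.78 (SE 0.25, edgeR adjusted p 0.172). The parts of sex and genotype cannot be told apart between these groups.

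*Meg3*, a maternally expressed non-coding RNA of the imprinted cluster on chromosome 12, was at 272 and 424 CPM in WT and 883 and 685 CPM in 1b-/- (log2 difference 1.17, SE 0.30). *Malat1*, an abundant RNA of nuclear speckles, was at 2565 and 3276 CPM in WT and 6565 and 5018 CPM in 1b-/- (log2 difference 0.99, SE 0.30), and *A930011O12Rik* at 35.1 and 60.6 CPM in WT and 104 and 97.0 CPM in 1b-/- (log2 difference 1.08, SE 0.30). All 3 were higher in both 1b-/- libraries, with edgeR adjusted p values of 1.0 each, and the 1b+/- libraries ranged from 384 to 801 CPM, from 3017 to 6566 CPM and from 43.4 to 86.3 CPM. In each the lowest 1b+/- library lay within the WT range, and for *Meg3* and *Malat1* the highest reached the 1b-/- level. Some other non-coding RNAs were chosen after their values were seen. *Ipw* of the Prader-Willi region, *Ftx* and *Jpx* of the X inactivation centre and the X-linked *Firre* had log2 differences of 0.68, 0.85, 1.01 and 0.69, each with an unadjusted p under 0.05. Both 1b-/- animals were female, and between female and male 1b+/- libraries these genes differed by -0.59, -0.04, 0.26 and -0.51. *Rian*, which neighbours *Meg3*, was at 200.5 and 238 CPM in WT and 271 and 302 CPM in 1b-/- (0.39, unadjusted p 0.105), *Neat1*, which neighbours *Malat1*, at 7.18 and 3.36 CPM in WT and 4.41 and 1.74 CPM in 1b-/- (-0.72), and *Peg13* at 240.2 and 284 CPM in WT and 264 and 283 CPM in 1b-/- (0.06).

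The other 8 of these 12 genes were at lower levels. *Spaca6*, a sperm protein gene, was at 1.49 and 1.37 CPM in WT and 4.9 and 5.98 CPM in 1b-/- (log2 difference 1.89, SE 0.41), and *Trim21*, an intracellular antibody receptor, at 0.99 and 1.99 CPM in WT and 5.75 and 4.49 CPM in 1b-/- (log2 difference 1.87, SE 0.45). *Nmi*, an interferon-induced gene, was at 2.39 and 2.44 CPM in WT and 6.12 and 3.99 CPM in 1b-/-, and *Ror1*, a Wnt5a receptor, at 2.31 and 2.14 CPM in WT and 5.51 and 4.24 CPM in 1b-/-. *Sepp1*, a selenium transport protein, was at 73.2 and 97.6 CPM in WT and 143 and 114 CPM in 1b-/-. The remaining 3, *Thsd1* (8.99 and 9.01 CPM in WT and 18.1 and 13.2 CPM in 1b-/-), *Clec14a* (13.4 and 12.7 CPM in WT and 29.9 and 16.5 CPM in 1b-/-) and the laminin gene *Lamc3* (5.2 and 4.28 CPM in WT and 12.2 and 6.98 CPM in 1b-/-), have roles in vessels or basement membranes. In each of the 3 the first 1b-/- library was the higher one, and their edgeR adjusted p was 1.0.

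**Figure D4:**
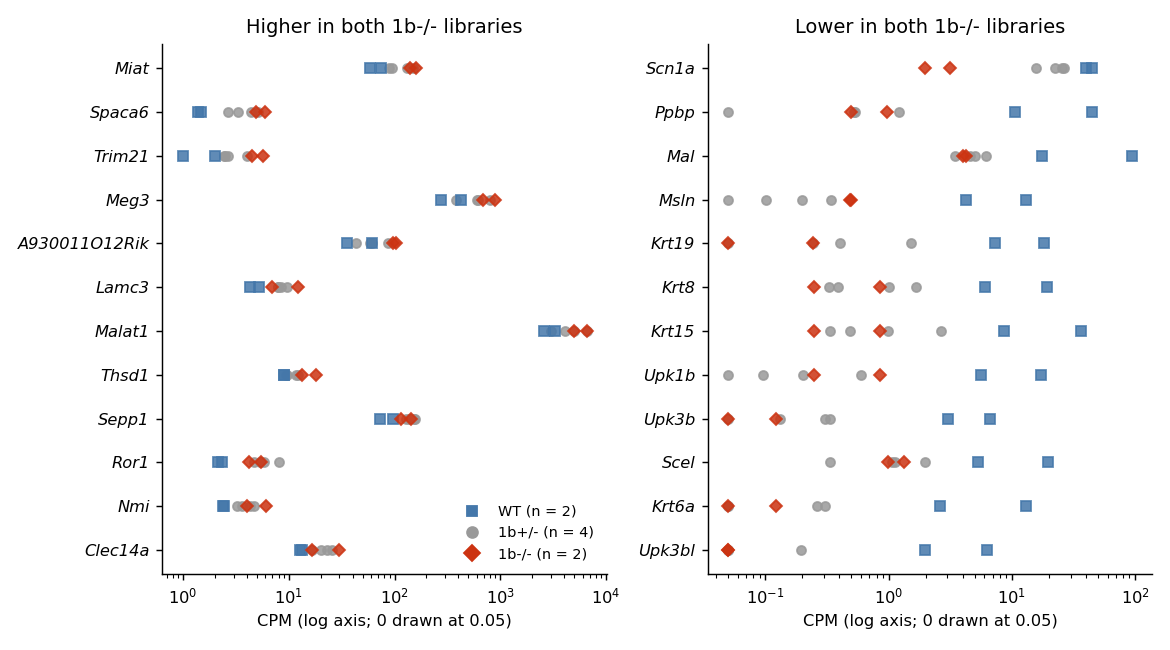
CPM in each library (log axis, with 0 drawn at 0.05) of the 12 genes per direction with the smallest unadjusted p among those whose 2 groups did not overlap. In the right panel all 1b+/- libraries lie below both WT libraries, and in the left panel they lie between or among the 2 groups or, for Ror1 and Sepp1, reach above them, as 1 library of Malat1 just does.

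Below WT in both 1b-/- libraries were 1740 genes (11.7%). Beside *Scn1a*, the 11 that led by unadjusted p were genes of epithelium and mesothelium or otherwise not typical of neurons. *Krt8*, a keratin of simple epithelia, was at 19.2 and 6.11 CPM in WT and 0.857 and 0.249 CPM in 1b-/- (log2 difference -4.31, SE 0.78), and *Krt15*, a keratin of basal epithelial cells, at 36.6 and 8.71 CPM in WT and 0.857 and 0.249 CPM in 1b-/- (log2 difference -5.14, SE 0.93). *Msln*, a surface protein of mesothelium, was at 13.1 and 4.28 CPM in WT and 0.49 and 0.499 CPM in 1b-/- (log2 difference -4.14, SE 0.71), and *Upk1b*, a uroplakin, at 17.2 and 5.65 CPM in WT and 0.857 and 0.249 CPM in 1b-/- (log2 difference -4.17, SE 0.78). *Scel*, a protein of the cornified envelope, was at 19.8 and 5.35 CPM in WT and 1.35 and 0.997 CPM in 1b-/- (log2 difference -3.39, SE 0.68). The edgeR adjusted p values of the 11 genes ran from 0.26 to 0.636. In each of these genes WT replicate 1 was the highest of the 4 libraries.

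*Ppbp*, a chemokine of platelets, was at 45.0 and 10.7 CPM in WT and 0.979 and 0.499 CPM in 1b-/- (log2 difference -5.11, SE 0.78). *Mal*, which serves both myelin and the apical membrane of epithelia, was at 95 and 17.7 CPM in WT and 4.04 and 4.24 CPM in 1b-/- (log2 difference -3.79, SE 0.65), whereas the myelin gene *Mbp* was at 20.5 and 20.6 CPM in WT and 15.2 and 16 CPM in 1b-/- (-0.41). For genes with 3 counts or fewer over both 1b-/- libraries the WT to 1b-/- ratio of counts per library size is given in place of the fitted value. It was 87.8 (95% interval 24.1 to 728) for *Krt19* (269 counts against 2), 114 (95% interval 20.2 to 4536) for *Krt6a* (175 against 1) and 65.3 (95% interval 11.4 to 2603) for *Upk3b* (100 against 1). *Upk3bl* had 89 counts in WT and 0 in 1b-/-, at least 19.4-fold lower against 3 counts over the group. These intervals cover counting error only.

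The list of epithelium and mesothelium markers, chosen with earlier results of these data known, was lower throughout. It holds genes named above, such as *Krt8* and *Msln*, so it is not separate support for them. It summed to 248 and 94.5 CPM in WT, 19.7 and 20.9 CPM in 1b-/- and 17.4 to 52.9 CPM in the 1b+/- libraries. Of 18 members, 18 were lower in 1b-/-, 15 at an unadjusted p under 0.05 and 0 past the adjusted threshold. Of the 18, 10 had reached 1 CPM in WT libraries only, against 376 of 14894 over all genes tested. The median log2 difference of the 18 members was -3.99 (-3.66 with genes absent from 1b-/- set at their bound), beside -0.01 over all genes tested. All 4 1b+/- sums lay below both WT sums. Without WT replicate 1, 12 of the 18 still had an unadjusted p under 0.05, at a median of -2.47, and with sex as a covariate 5 did, at a median of -2.10. In 3 further genes of stratified epithelia, chosen after their values were seen, WT replicate 1 alone was high. *Krt4* was at 28.6 and 0.153 CPM in WT and 0.734 and 0.249 CPM in 1b-/-, *Hrnr* at 45.8 and 0.916 CPM in WT and 0.979 and 0.748 CPM in 1b-/- and *Rptn* at 47.6 and 0 CPM in WT and 0.367 and 0 CPM in 1b-/-. Whether tissue carried over in dissection had a part in the lower values in 1b-/- was not tested. In such bulk samples, fewer cells of a type and less RNA per cell cannot be told apart.

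Sex-linked genes followed the sex labels. *Xist*, the RNA that silences the inactive X, was at 1.24 and 0.916 CPM in WT and 581 and 381 CPM in 1b-/-. The 4 Y-linked genes *Uty*, *Kdm5d*, *Eif2s3y* and *Ddx3y* lay from 53.1 to 107 CPM in WT and did not exceed 0.367 CPM in 1b-/-. *Uty* had 1155 counts in WT and 0 in 1b-/-, at least 251-fold lower. None of these 5 passed the adjusted threshold in the fit of all 8 libraries, where the 1b+/- group holds both sexes. All 5 passed between female and male 1b+/- libraries (0.0336% of genes called). Among 8 X-linked genes that escape inactivation, 7 were higher in the female 1b-/- libraries, with a median log2 difference of 0.24 (-0.12 with sex as a covariate). *Kdm6a*, a histone demethylase gene, was at 70.1 and 68.4 CPM in WT and 105 and 94.2 CPM in 1b-/- (0.53), and between female and male 1b+/- libraries it differed by 0.68. *Kdm5c*, another histone demethylase gene, had values of 0.34 and 0.35 in the same comparisons.

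Genes of the cells in which NaV1.1 acts were next compared. Of 25 interneuron genes tested, 13 were higher and 12 lower in 1b-/-, with a median log2 difference of 0.01 and 0 at an unadjusted p under 0.05. Without WT replicate 2 21 were higher and 4 lower, and without WT replicate 1 9 were higher and 16 lower. The list members with the largest differences were *Dlx6* (0.58, -0.16 to 1.31) and *Calb2* (-0.32, -1.14 to 0.49). The genes that follow were named for their role. *Gad1*, which encodes a GABA-synthesizing enzyme, was at 66.2 and 90.9 CPM in WT and 72.6 and 99.2 CPM in 1b-/- (0.13, -0.42 to 0.67). *Sst*, the peptide of a main interneuron class, was at 80.1 and 138 CPM in WT and 82.1 and 134 CPM in 1b-/- (-0.02, -1.15 to 1.12), and the difference within each genotype was larger than that between them. *Lhx6*, a transcription factor of interneurons born in the medial ganglionic eminence, was at 112 and 181 CPM in WT and 134 and 142 CPM in 1b-/- (-0.08, -0.71 to 0.54). *Pvalb*, the marker of fast-spiking interneurons, and *Vip* did not reach 1 CPM in any of the 4 libraries at this age, so they could not be compared. *Kcnc1*, which encodes the potassium channel Kv3.1 of fast-spiking cells, was at 27.3 and 34.8 CPM in WT and 33.2 and 28.9 CPM in 1b-/- (0.01, -0.47 to 0.49).

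Genes that report neuronal activity were examined because loss of NaV1.1 is known for seizures. Of 19 immediate early genes tested, 11 were higher and 8 lower (median 0.01), and 0 had an unadjusted p under 0.05. Without WT replicate 1 5 were higher and 14 lower. With sex as a covariate 7 were higher and 12 lower (median -0.17), and 2 of the lower ones had an unadjusted p under 0.05. *Fos* was at 2.23 and 1.53 CPM in WT and 1.1 and 0.997 CPM in 1b-/- (-0.85, -2.12 to 0.43) and *Arc* at 3.63 and 3.05 CPM in WT and 2.94 and 3.99 CPM in 1b-/- (0.01, -0.80 to 0.81). *Npas4*, an activity-dependent transcription factor, was at 1.07 and 1.68 CPM in WT and 2.33 and 3.74 CPM in 1b-/-, above WT in both 1b-/- libraries and above the 1b+/- libraries (1.21 to 2.03 CPM), with a log2 difference of 1.13 (SE 0.52, unadjusted p 0.0508, edgeR adjusted p 1.0). *Bdnf*, a growth factor induced by activity, was at 9.9 and 10.1 CPM in WT and 7.1 and 8.97 CPM in 1b-/- (-0.33). *Npas4* rested on at most 19 counts in a library.

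Of 15 genes tested of the response to seizures and injury, 5 were higher and 10 lower, with 1 in each direction at an unadjusted p under 0.05. With sex as a covariate 9 were higher and 6 lower, and the median turned from -0.21 to 0.36. Of the 15, 3 had reached 1 CPM in 1b-/- libraries only, *Atf3* among them, and 2 in WT libraries only. *Atf3*, a stress-induced transcription factor, was at 0.248 and 0.458 CPM in WT and 0.979 and 1.74 CPM in 1b-/- (log2 difference 1.93, SE 0.70), from 3 and 3 counts against 8 and 7. *Gfap*, the filament of reactive astrocytes, was at 6.52 and 9.62 CPM in WT and 4.9 and 3.49 CPM in 1b-/- (log2 difference -0.89, SE 0.34), lower in 1b-/-. *Npy*, a peptide induced by seizures, was at 132 and 152 CPM in WT and 148 and 164 CPM in 1b-/- (0.14, -0.26 to 0.53).

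Synaptic and developmental genes were read by list. Of 23 genes of synaptic vesicles and release, 22 had an interval within 1 log2 unit of 0, as had 28 of 32 postsynaptic genes and 27 of 30 other genes of human epileptic encephalopathies. None of these had an unadjusted p under 0.05, and the medians were -0.02, -0.01 and 0.00. With sex as a covariate 2 vesicle and release genes were higher and 1 postsynaptic gene lower at an unadjusted p under 0.05. *Gria2*, an AMPA receptor subunit, was at 631 and 557 CPM in WT and 763 and 648 CPM in 1b-/- (0.25, -0.20 to 0.70). Of 22 genes of immature neurons, 19 were lower in 1b-/-, by a median of -0.14 that ran from -0.26 to -0.11 over the alternative fits. Of 22 cell cycle genes 18 were higher, by a median of 0.07. The cell cycle count rested on 1b-/- replicate 1, without which 6 were higher and 16 lower (median -0.09). None of either list had an unadjusted p under 0.05. *Neurod1*, a transcription factor of newborn neurons, was at 257 and 212 CPM in WT and 173 and 162 CPM in 1b-/- (-0.49, -1.05 to 0.07) and *Mki67*, a proliferation marker, at 342 and 299 CPM in WT and 459 and 297 CPM in 1b-/- (0.24, -0.49 to 0.97), with 1b-/- replicate 1 above the other 3 libraries.

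Markers of other cell types and regions varied between animals. Choroid plexus genes were lower in 13 of 15 cases, by a median of -0.45, with 0 at an unadjusted p under 0.05. The median was -0.15 without 1b-/- replicate 1 and -0.98 without 1b-/- replicate 2. *Ttr*, the transthyretin of this epithelium, was at 882 and 935 CPM in WT and 378 and 762 CPM in 1b-/- and ranged from 6.81 to 886 CPM in 1b+/-. Endothelial and pericyte genes were higher in 14 of 15 cases, by a median of 0.36, 1 of them (*Cdh5*, 0.50) at an unadjusted p under 0.05. *Cldn5*, a tight junction gene, was at 16.8 and 21.8 CPM in WT and 31.7 and 29.2 CPM in 1b-/- (0.67, unadjusted p 0.073), and the list summed to 462 and 475 CPM in WT and 666 and 484 CPM in 1b-/-. The list median was 0.11 without 1b-/- replicate 1 and 0.55 without 1b-/- replicate 2. *Slco1a4*, a transporter of the blood-brain barrier, went the other way, at 6.85 and 9.32 CPM in WT and 4.04 and 1.99 CPM in 1b-/- (log2 difference -1.33, SE 0.39, unadjusted p 0.0055, edgeR adjusted p 1.0).

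Meningeal genes were higher in 13 of 14 cases (median 0.26, 0 at an unadjusted p under 0.05), but in 6 without WT replicate 1 (median -0.02) and in 7 without 1b-/- replicate 1 (median -0.01). With sex as a covariate 14 were higher (median 0.86), 4 at an unadjusted p under 0.05. The sums, 640.4 and 1130.1 CPM in WT and 1234 and 792 CPM in 1b-/-, overlapped. Of the blood list, 6 of 6 genes tested were lower (median -0.44, and -0.14 without WT replicate 1), with *Slc4a1*, the anion exchanger of red cells, at 6.93 and 7.18 CPM in WT and 3.06 and 4.49 CPM in 1b-/- (unadjusted p 0.027). Microglial genes had a median of 0.15, astrocyte genes of -0.11 and oligodendrocyte genes of 0.11. The microglial median was -0.08 without 1b-/- replicate 1, and the oligodendrocyte one -0.17 without WT replicate 1 and -0.31 without 1b-/- replicate 2. The neocortical, striatal, hippocampal, thalamic and olfactory bulb lists had medians of -0.03, 0.11, -0.10, -0.22 and 0.17. The thalamic value rested on single libraries, since 11 of 11 genes were higher without WT replicate 1 (median 0.32) and 0 of 11 without WT replicate 2 (median -0.54), and the median was 0.36 with sex as a covariate. The striatal median was -0.02 without 1b-/- replicate 1 and the neocortical one 0.09 without 1b-/- replicate 2. In the hippocampal list *Dsp*, a desmosome gene shared by dentate granule cells and epithelia, was at 36.5 and 14.2 CPM in WT and 6.61 and 10.5 CPM in 1b-/- (log2 difference -1.63, SE 0.41), and without WT replicate 1 no gene of this list that was lower in 1b-/- had an unadjusted p under 0.05. Hypothalamic (-0.21), cerebellar (-0.09), midbrain and hindbrain (-0.04) and muscle (-1.14) lists rested on 5, 6, 4 and 7 genes tested. The muscle median was -0.23 without WT replicate 1, the hypothalamic one 0.50 without 1b-/- replicate 1 and -0.92 without 1b-/- replicate 2, and the cerebellar one 0.73 with sex as a covariate. The muscle sum was 34.4 CPM in WT replicate 1 and at most 13.2 CPM in the other 3 libraries. The part that these differences in tissue makeup have in the gene values above was not tested.

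**Figure D5:**
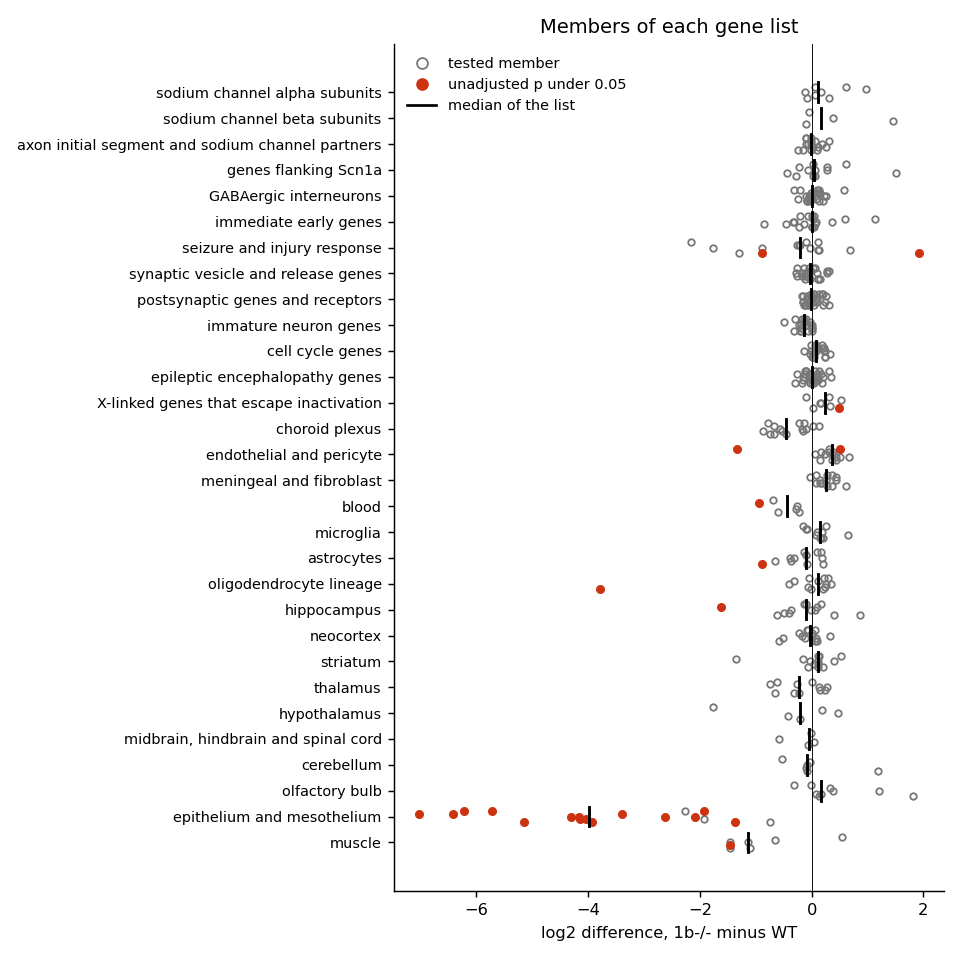
Log2 difference, 1b-/- minus WT, of the tested members of each gene list except that of sex-linked genes, which is not drawn. Circles are genes, filled where the unadjusted p was under 0.05, and bars are list medians; most medians lie near 0, and that of epithelium and mesothelium lies at -3.99.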

How the data were processed

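RNA was measured at P7 in 8 mouse brain libraries (2 WT, 4 1b+/- and 2 1b-/-). The authors prepared stranded poly(A) libraries, ran FastQC, aligned single-end reads to NCBIM37/mm9 with STAR 2.7.2 and assigned them to genes with featureCounts, and deposited raw counts per gene. The use of strand, the handling of multi-mapping reads and the annotation release are not given in the sources used here. Of the symbols, 27 had been turned into dates by a spreadsheet, of which 23 were tested. Nothing in the labels says how the animals relate by litter, so p values measure the spread between these samples.

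Counts were tested with edgeR 4.0.16 in R 4.3.3 by the quasi-likelihood test after trimmed mean of M values (TMM) scaling. All 8 libraries entered 1 fit with genotype as the factor, and p values were adjusted by Benjamini-Hochberg over the 14894 genes that reached 1 CPM in 1 or more of the 4 compared libraries. A call needed an adjusted p under 0.05. SEs were derived from the F statistic and intervals from the t distribution. Per-library levels are CPM on the library total multiplied by its TMM factor, whereas the filter at 1 CPM used the unscaled total. RPKM used these scaled levels and exon lengths of GENCODE vM1. Intervals for ratios of counts and limits from a count of 0 (3 counts) cover counting error only. The scripts were tested on simulated data. Alternatives were other filters (filterByExpr, none, or 1 CPM in any of 8 libraries), relative log expression (RLE) and upper quartile scaling, the likelihood ratio test, DESeq2 1.42.0, the 4 libraries alone, sex as a covariate, and leaving out each library.

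The genes named were *Scn1a*, those past the adjusted threshold, in each direction the 12 with the smallest unadjusted p among those with at least 2 CPM, no overlap between groups and not sex-linked, and those past the threshold with the 4 libraries alone or with sex. In each of 31 gene lists the rule took the members with the highest levels, the largest differences or an unadjusted p under 0.05, and only some of these are reported. Some further genes, among them list members named for their role, were chosen after their values were seen. The members and lists were chosen with earlier results of these data known. The cut sites were read from the NCBIM37/mm9 genome at positions found by matching the study's guides to it. Some genes and sequences are not reported here.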

Additional observations from a re-analysis of the deposited data

How the results depend on the processing

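*Scn1a* passed the adjusted threshold in 18 of 18 alternatives, and its log2 difference ranged from -4.41 to -3.74 when each library was left out. The number of genes past the threshold was 1 in the reported fit. It was also 1 under filterByExpr, 1 CPM in at least 1 of all 8 libraries, RLE and upper quartile scaling and sex as a covariate. It was 20 with no filter on low counts (2 higher and 18 lower in 1b-/-), 25 by the likelihood ratio test (5 higher and 20 lower), 12 by DESeq2 (2 higher and 10 lower, with 580 adjusted p values not given), 15 with the 4 libraries only (2 higher and 13 lower) and 42 with these and the likelihood ratio test (8 higher and 34 lower). Leaving out 1 library in turn gave 1 to 19 genes, with 19 only without WT replicate 2, and the cause was not tested. Where a group was left with 1 library, that library was assumed to vary like the others. The number of genes with an unadjusted p under 0.05 was 261, and it was 388 with sex as a covariate, 429 with the 4 libraries and the likelihood ratio test, and 146 without WT replicate 1. Of 2893 alternative values for the 161 other named genes, 2803 kept their direction and 90 changed sign without passing the threshold. Among all 2893, 100 were newly past it. Many of these genes were chosen by these same values, and the fits share most libraries, so a kept direction is not separate support. Of the medians of the 31 gene lists, 22 changed sign under at least 1 alternative and 18 when 1 of the 4 compared libraries was left out, while that of epithelium and mesothelium ran from -4.60 to -2.10. With 2 libraries a group, and 3940859 counts in the shallowest, a change by a log2 of 1 could hardly ever be excluded for genes under 2 CPM. No paired analysis was possible because the labels give no replicate numbers.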
